A study of Mus musculus with 48 samples.

Results

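The change in gene expression of Kupffer cells (KCs) between 12 and 24 h after acetaminophen (APAP) was measured in 8 of the 48 RNA-seq libraries of the study, namely the 4 libraries titled as KCs 24 h after APAP and the 4 titled as KCs 12 h after APAP. Both groups came from the livers of male C57BL/6 mice and both had received APAP, so the contrast compares 2 times after the same drug and not drug with vehicle. The labels give no genotype beyond the strain, no age, no dose and no clock hour. They also do not say whether the 4 libraries of a group came from different mice, and every p-value below is therefore set against variation among libraries that may be technical. The study followed KCs from 6 to 168 h after APAP, with 4 libraries at each time, and had 2 libraries of KCs at 0 h and 2 at 24 h after PBS, the vehicle. LAM-like KCs, a second population at 36 and 48 h, are not part of the contrast, and the labels do not say whether KCs at 12 or 24 h contained such cells.

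KCs are the resident macrophages of the liver. They sit in the sinusoids, clear particles, dead cells and old erythrocytes from the blood, and renew mainly by division within the tissue. APAP in excess is turned by hepatocytes into a reactive product that kills cells around the central veins, and KCs meet the released debris and danger signals within hours. Cells that enter the division cycle first switch on, through E2F transcription factors, the genes that copy DNA (S phase), and only later those that separate the chromosomes (mitosis).

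The 4 libraries at 12 h held 17306943 to 21997446 reads counted in genes and those at 24 h held 19073396 to 22326512, and 17080 of 54735 genes had enough reads to be tested. KC markers were abundant in all 8 libraries: Clec4f, a KC lectin, ranged from 4273 to 10060 CPM (a gene's reads per 1000000 reads of the scaled library) and Cd5l, a secreted scavenger protein, averaged 8789 CPM at 12 h and 8541 CPM at 24 h. RNA of other liver cells was present at a low level. The summed level of 25 hepatocyte markers was 1340 to 4380 CPM at 12 h and 1320 to 1980 CPM at 24 h. That of 19 endothelial markers was 630 to 917 CPM and 388 to 673 CPM, and that of 18 stellate cell markers 243 to 414 CPM and 162 to 197 CPM. Most of the stellate sum was Ecm1. Ecm1 had 356, 293, 266 and 171 CPM at 12 h, 160, 121, 118 and 112 CPM at 24 h, and 163 to 225 CPM in the 4 PBS libraries. Of the 18 stellate markers 9 had a positive and 9 a negative log2 fold change, with a median of -0.05. The other 2 lists leaned to lower levels at 24 h. Of the 25 hepatocyte markers 22 had a negative log2 fold change, with a median of -0.84. All 19 endothelial markers did, with a median of -0.83. For 6 of these 19 every 24 h library was below every 12 h library, beside 5.98% of all genes. In such bulk samples fewer cells of a type and less RNA per cell cannot be told apart. The file headers number the libraries. For this report the numbers up to 25 were taken as set 1 and the higher ones as set 2, a cut that was made here. Replicates 1, 2 and 3 at 12 h and replicates 1 and 2 at 24 h belong to set 1, and 12 h replicate 4 and 24 h replicates 3 and 4 to set 2. The headers do not say what a set is. The 12 h replicate 4 stood apart from its group. On the first principal component of the 8 libraries, which held 31.7% of the variance, it lay at 5.8, while the other 12 h libraries lay between -65.5 and -47.9 and the 24 h libraries between 8 and 61. Results that rest on this library are given below with and without it.

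Of the 17080 genes tested, 1544 (9.04%) differed between the 2 times at an adjusted p below 0.05. Higher levels at 24 h were found for 925 genes (5.42%) and lower levels for 619 (3.62%), and 308 and 171 of these changed at least 2-fold. The median log2 fold change of all genes was 0. Of the lists described below, that of DNA replication had the highest share of members called higher and that of the NF-kB pathway the highest share called lower. Without 12 h replicate 4 the fit called 2133 genes, 1309 higher and 824 lower, and without 12 h replicate 1 it called 772, 494 higher and 278 lower. Leaving out 12 h replicate 2 gave 362 lower calls and leaving out 24 h replicate 2 gave 1000 calls in all, with 380 lower, and without 24 h replicate 4 there were 399 lower calls. A fit on only the 8 libraries compared tested 13068 genes and called 1191, 618 higher and 573 lower. Of 151 genes picked out by size, by list or in a fixed panel and tested there, 42 called in the main fit were not called in that fit. The 151 include panel genes that were not called in the main fit. Lost calls of genes described below are given with their list. Genes are named by size below where they are among the 15 largest called rises or falls, reach a mean of 10 CPM or more at the time where they are higher, and do not overlap between the groups.

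**Figure D1:**
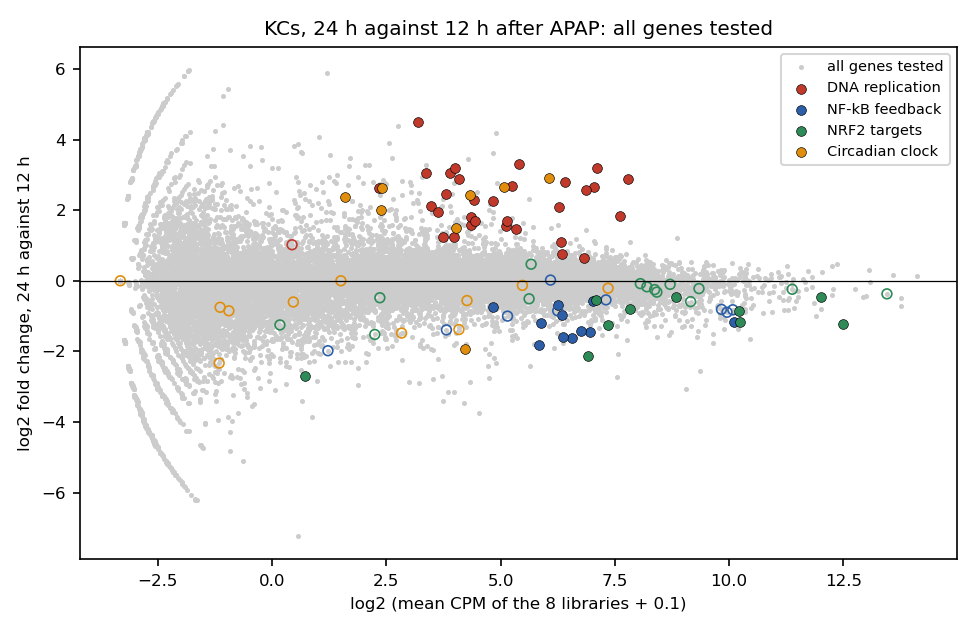
Log2 fold change of each gene tested (24 h against 12 h, y axis) against its mean level in the 8 libraries (x axis, log2 of CPM + 0.1). Grey points are all 17080 genes, filled coloured points are called members of 4 gene lists and open coloured points are members not called. DNA replication genes lie above 0, with 31 of 32 called, and the called NF-kB and NRF2 genes lie below it.

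DNA replication genes rose together. Of 32 listed genes of the replication machinery, all tested, 31 were higher at 24 h and none was lower, beside 5.42% of all genes called higher. Their median log2 fold change was 2.2, beside 0 over all genes tested. The 24 h libraries lay above all 12 h libraries for 27 of the 32 genes, beside 8.08% of all genes. Fen1, the flap endonuclease, was the member not called, at 0.821 CPM at 12 h and 1.68 CPM at 24 h (log2 fold change 1.02 ± 0.47 (SE), adjusted p = 0.19).

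The starts of some of these genes are shown because their list was the one that moved most completely. They are the 250 bases before the start in RefSeq (build GRCm38.p6) of Mcm5 (chr8:75109259-75109508, plus strand), Mcm6 (chr1:128359706-128359955, minus strand) and Cdc6 (chr11:98907901-98908150, plus strand), written 5′ to 3′ on the strand of the gene. Capitals mark the letters TTTCCCGC or TTTGGCGC, forms of the E2F motif, read on either strand.
Mcm5: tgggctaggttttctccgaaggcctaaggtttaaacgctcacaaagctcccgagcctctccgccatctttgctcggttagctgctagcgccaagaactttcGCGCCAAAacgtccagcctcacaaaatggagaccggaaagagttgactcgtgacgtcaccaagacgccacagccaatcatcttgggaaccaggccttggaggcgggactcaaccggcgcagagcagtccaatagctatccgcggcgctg
Mcm6: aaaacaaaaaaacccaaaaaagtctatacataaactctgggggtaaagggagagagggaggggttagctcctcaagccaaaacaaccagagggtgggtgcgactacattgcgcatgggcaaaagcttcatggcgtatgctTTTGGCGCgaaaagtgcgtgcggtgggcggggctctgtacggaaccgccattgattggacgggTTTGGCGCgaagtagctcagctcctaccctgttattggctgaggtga
Cdc6: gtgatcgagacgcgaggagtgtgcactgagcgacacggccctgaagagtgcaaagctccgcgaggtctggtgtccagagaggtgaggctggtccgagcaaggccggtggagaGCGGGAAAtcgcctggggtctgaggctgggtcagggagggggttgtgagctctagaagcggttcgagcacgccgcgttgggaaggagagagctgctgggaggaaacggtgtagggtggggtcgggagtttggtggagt
The match begins 149 bases before the RefSeq start in Mcm5, 138 bases before it in Cdc6, and 110 and 47 bases before it in Mcm6. In the GENCODE M21 annotation Cdc6 begins at 98907801, so its window lies inside that gene. Of 26 list members with a RefSeq window, 5 (19.2%) held such letters, beside 285 (2.5%) of 11402 tested genes with a window. A match describes the letters in the window and is not a measured binding site.

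The MCM complex is the helicase that opens DNA at replication origins, and all 6 of its core subunits rose. Mcm5 (chromosome 8, 75109569 to 75128439, plus strand, mm10) stood at 6.96, 17.2, 12.9 and 72.3 CPM in 12 h replicates 1 to 4 and at 135, 217, 292 and 355 CPM in 24 h replicates 1 to 4. The groups did not overlap, and the highest 12 h library was replicate 4. The log2 fold change of Mcm5 was 3.19 ± 0.57 (adjusted p = 0.000253), and 4.34 without 12 h replicate 4. Fitted on only the 8 libraries compared, Mcm5 kept a value of 3.17 but was not called (adjusted p = 0.0546). Mcm6 (chromosome 1, 128331590 to 128359664, minus strand) showed the same order, with 17, 38.7, 28.4 and 127 CPM at 12 h and 234, 388, 453 and 473 CPM at 24 h, a log2 fold change of 2.87 ± 0.41 (adjusted p = 1.35e-05). Of the remaining subunits, Mcm7 rose by 2.81 ± 0.42, Mcm2 by 2.66 ± 0.43, Mcm4 by 2.57 ± 0.35 and Mcm3 by 1.83 ± 0.25 on the log2 scale.

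Genes that load the helicase and start it rose as well. Cdc6, which loads MCM onto origins, had 1.82, 2.36, 1.94 and 6.36 CPM at 12 h and 8.79, 20.8, 36.0 and 49.4 CPM at 24 h (log2 fold change 3.18 ± 0.55, adjusted p = 0.000188). Cdc45, which joins MCM when it starts to unwind, rose from 2.14 ± 1.78 CPM (SD, n = 4) to 18.2 ± 7.66 CPM (log2 fold change 3.06 ± 0.55). The loading factor Cdt1 went from 21.3 to 59.6 CPM and Gins2, of the GINS complex that completes the helicase, from 4.24 to 23.6 CPM. Every 24 h library of Cdc6 and Cdc45 was above every 12 h library.

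Polymerase genes gave the largest rise among all genes named by size. Pole, the catalytic subunit of the leading-strand polymerase, had 0.552, 0, 0 and 2.32 CPM at 12 h and 5.98, 14.1, 18.1 and 30.8 CPM at 24 h. The log2 fold change of Pole was 4.49 ± 0.97 (adjusted p = 0.00224), and its size is uncertain because the 12 h counts were near 0: it was 6.45 without 12 h replicate 4. Pola1, of the priming polymerase, rose by 1.54 ± 0.24, the clamp Pcna by 0.65 ± 0.17 and the ligase Lig1 by 2.68 ± 0.35 on the log2 scale. The gene Pole overlaps the predicted genes Gm26277 and Gm15791 on the same strand, so its reads cannot be fully separated from theirs.

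The other genes with the largest rises act in DNA replication and its control, in DNA repair or on chromatin, apart from Nup210 and Nr1d2. Dtl, which targets Cdt1 for destruction during S phase, had 0.994, 1.61, 0.364 and 9 CPM at 12 h and 18.8, 45.4, 76.6 and 85.4 CPM at 24 h (log2 fold change 4.19 ± 0.64, adjusted p = 3.02e-05). Uhrf1, which carries DNA methylation over to the new strand, went from 7.69 ± 8.83 CPM (SD, n = 4) to 76.9 ± 33.4 CPM, and Hells, a chromatin remodeller, from 4.19 ± 5.53 to 52.8 ± 20.3 CPM. Nup210, a nuclear pore protein, rose by 3.91 ± 0.70 on the log2 scale. Timeless, a protein of the fork, rose by 3.44 ± 0.54, the checkpoint kinase Chek1 by 3.29 ± 0.78, the nuclease Exo1 by 3.47 ± 0.75 and the recombination factor Rad54l by 2.93 ± 0.56. In each of Dtl, Uhrf1, Hells, Timeless, Chek1, Exo1 and Rad54l, 12 h replicate 4 was the highest 12 h library and every 24 h library was higher still. Without 12 h replicate 4 the log2 fold changes were larger, with 5.82 for Dtl, 4.54 for Uhrf1, 5.20 for Hells, 4.93 for Nup210, 4.97 for Timeless, 5.18 for Chek1, 6.32 for Exo1, 4.01 for Rad54l, 3.81 for Cdc6, 3.78 for Cdc45 and 3.79 for Mcm6.

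**Figure D2:**
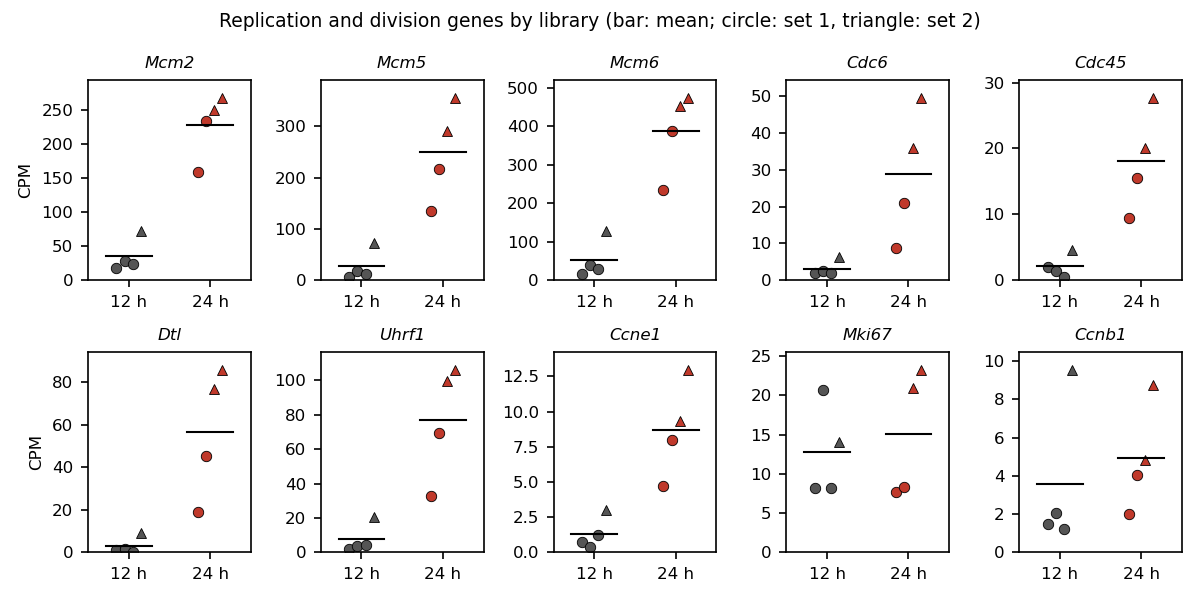
CPM in each of the 4 libraries at 12 h (grey) and at 24 h (red) for 8 genes of DNA replication and its control and for the division markers Mki67 and Ccnb1, with the mean as a bar; circles are set 1 and triangles set 2. The groups are apart for the first 8 genes, with 12 h replicate 4 (grey triangle) highest at 12 h, and they overlap for Mki67 and Ccnb1.

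Leaving out each library in turn left 29 to 32 of the 32 replication genes called higher, and the fit on only the 8 libraries compared called 24. In that fit the call of Uhrf1 (adjusted p = 0.0502) was also lost. So were those of Chek1 (adjusted p = 0.0774) and Exo1 (adjusted p = 0.0939), which are not among the 32. The set moved with these levels: within 12 h the set 2 library was the highest, and at 24 h both set 2 libraries were above both set 1 libraries for Mcm5, Dtl and Uhrf1. Within set 1 alone, with 3 libraries at 12 h and 2 at 24 h, 31 of the 32 were called higher, and with the set as a covariate 31. Set 2 alone had a single library at 12 h and 2 at 24 h, so only effect sizes are given here. The median log2 fold change of the 32 was 1.68 there, with 2.16 for Mcm5 and 2.75 for Cdc6. It was 3.17 for Dtl, which is not among the 32.

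Regulators of the entry into S phase changed in part. Of 19 tested genes of the E2F family, G1 cyclins, their kinases and inhibitors, 7 were higher at 24 h and none lower, beside 5.42% of all genes called higher, with a median log2 fold change of 0.56. Ccne1, the cyclin that starts S phase with Cdk2, had 0.718, 0.403, 1.21 and 3.02 CPM at 12 h and 4.73, 7.96, 9.31 and 12.9 CPM at 24 h (log2 fold change 2.67 ± 0.48, adjusted p = 0.000269). Cdk2 rose by 0.79 ± 0.14, the activator E2f1 by 1.12 ± 0.19 and the pocket protein Rbl1, itself an E2F target, by 1.78 ± 0.25. The remaining calls were Ccne2, Ccnd3 and E2f2. Levels of the D-type cyclin Ccnd1 were 50.8 and 68.0 CPM (adjusted p = 0.437), of the growth regulator Myc 267 and 282 CPM (adjusted p = 0.89) and of the inhibitor Cdkn1a 72.3 and 51.2 CPM (adjusted p = 0.703). Leaving out 1 library changed the number called from 4, without 12 h replicate 1, to 10, without 12 h replicate 4, and the call of Ccne2 was lost without 12 h replicate 1 (adjusted p = 0.0528) and with only the 8 libraries compared (adjusted p = 0.0581). Cdk2 lost its call within set 1 alone (adjusted p = 0.132).

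Genes of mitosis moved less. Of 29 tested, 7 (24.1%) were higher at 24 h and none lower, beside 5.42% of all genes called higher, with a median log2 fold change of 0.66. The 24 h libraries were above all 12 h libraries for 3 of the 29, beside 8.08% of all genes. The median was 0.28 without 24 h replicate 4 and 1.41 without 12 h replicate 4. Mki67, a marker of dividing cells, had 8.18, 20.7, 8.18 and 14.1 CPM at 12 h and 7.75, 8.38, 20.9 and 23.2 CPM at 24 h, a log2 fold change of 0.24 ± 0.38 (adjusted p = 0.777). The groups overlapped, with both set 2 libraries highest at 24 h, and the sign of Mki67 turned within set 1 alone (-0.62) and without 24 h replicate 4 (-0.05). Ccnb1, the mitotic cyclin, averaged 3.57 and 4.92 CPM (adjusted p = 0.747), and the mitotic kinase Plk1 2.27 and 2.51 CPM (adjusted p = 0.943). The called members were the condensin subunits Ncaph (log2 fold change 2.31 ± 0.37, and 3.05 without 12 h replicate 4) and Smc2 (1.41 ± 0.24), the kinase Cdk1 (1.48 ± 0.35), Ect2, Aurka, Aurkb and Bub1b. Between 4 and 12 were called as 1 library was left out, with 4 without 12 h replicate 1, 12 h replicate 3 or 24 h replicate 4 and 12 without 12 h replicate 4. Aurkb lost its call without 12 h replicate 1, 12 h replicate 3 or 24 h replicate 4, with an adjusted p of up to 0.0732. With only the 8 libraries compared 4 were called, and Aurkb (adjusted p = 0.0995) and Cdk1 (adjusted p = 0.052) were not.

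The neighbouring times place these levels. Mean Mcm5 was 10.3 CPM at 6 h, 27.3 CPM at 12 h, 250 CPM at 24 h, 537 CPM at 36 h and 101 CPM at 48 h, and the 4 PBS libraries lay between 41.6 and 83.5 CPM. Mcm5 was thus below the PBS range in 3 of the 4 libraries at 12 h and above it in 4 of 4 at 24 h. Mean Mki67 was 12.8 CPM at 12 h, 15 CPM at 24 h, 99.2 CPM at 36 h and 111 CPM at 48 h. These levels at other times are descriptions and were not tested.

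**Figure D3:**
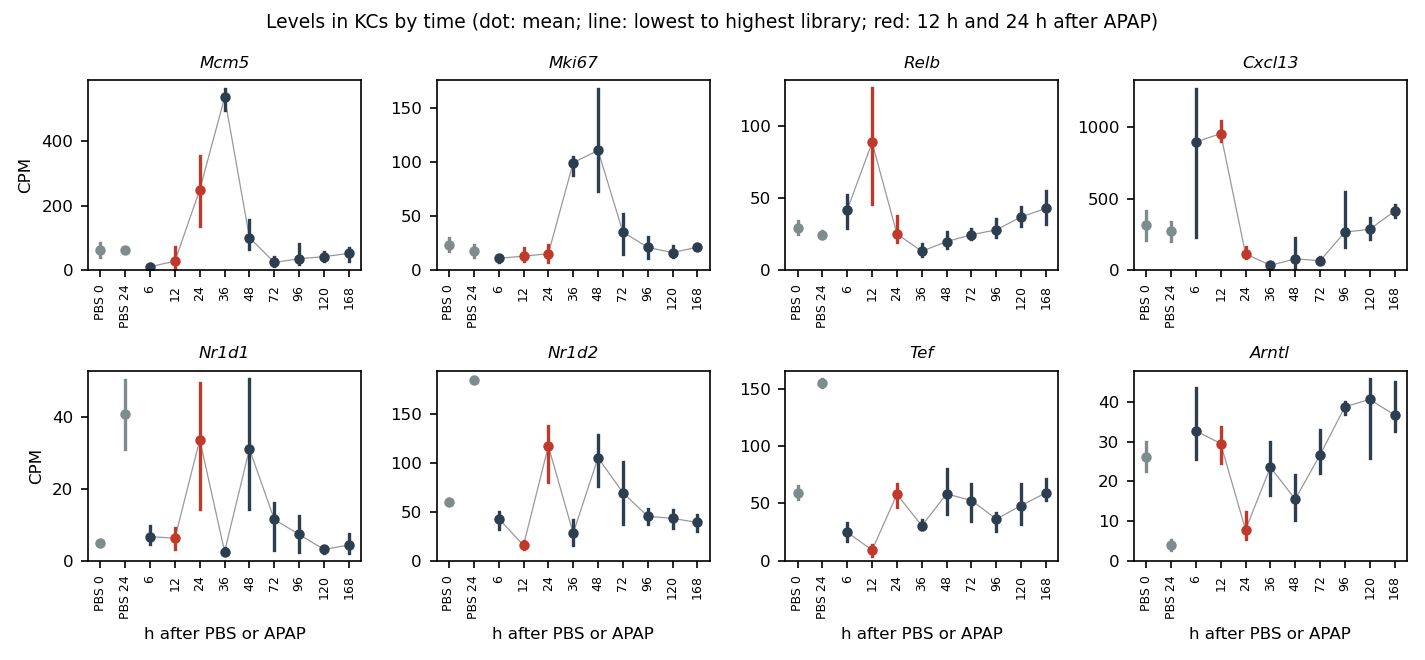
Mean CPM (dot) and the range from lowest to highest library (line) for 8 genes in KCs after PBS (grey) and after APAP (blue, with 12 and 24 h in red), by time in h. Mcm5 climbs from 27.3 CPM at 12 h to 250 CPM at 24 h while Mki67 stays at 12.8 and 15 CPM; Relb and Cxcl13 fall, and the clock genes Nr1d1, Nr1d2, Tef and Arntl alternate between times.

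Transcripts of the NF-kB pathway fell. NF-kB proteins are transcription factors that are released when danger or cytokine receptors fire, and they raise their own subunits and inhibitors. Of 20 tested genes of subunits and feedback, 11 were lower at 24 h and none was higher, beside 3.62% of all genes called lower, and 19 of the 20 had a negative log2 fold change, with a median of -0.98. The 24 h libraries lay below all 12 h libraries for 8 of the 20, beside 5.98% of all genes.

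The starts of 2 called members with a kappaB match are shown because NF-kB raises genes of its own pathway. They are the 250 bases before the RefSeq start (GRCm38.p6) of Nfkb2 (chr19:46304487-46304736, plus strand) and Rel (chr11:23770970-23771219, minus strand), with the kappaB motif (GGG, any 2 bases, then TTTCC), searched on both strands, in capitals.
Nfkb2: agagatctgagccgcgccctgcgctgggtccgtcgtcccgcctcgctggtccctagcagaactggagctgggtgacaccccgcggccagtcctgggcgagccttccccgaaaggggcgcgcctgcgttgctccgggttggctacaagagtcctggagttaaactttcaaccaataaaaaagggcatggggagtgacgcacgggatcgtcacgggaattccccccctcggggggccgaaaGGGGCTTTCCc
Rel: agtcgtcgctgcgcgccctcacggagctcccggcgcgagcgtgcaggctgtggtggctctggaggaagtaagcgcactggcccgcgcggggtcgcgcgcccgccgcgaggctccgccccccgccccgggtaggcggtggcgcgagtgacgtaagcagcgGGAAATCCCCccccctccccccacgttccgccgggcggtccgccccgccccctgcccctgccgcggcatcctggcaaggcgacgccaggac
The match begins 11 bases before the RefSeq start in Nfkb2 and 91 bases before it in Rel. In the GENCODE M21 annotation Nfkb2 begins at 46304320, so its window lies inside that gene. Of 17 list members with a window, 5 (29.4%) held the motif, beside 159 (1.39%) of the 11402 tested genes. The 5 were Nfkb2, Rel, Nfkbia, Tnfaip3 and Cyld, of which Nfkb2 and Rel were called lower.

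Subunits of the alternative branch changed most. Relb (chromosome 7, 19606217 to 19629438, minus strand) had 126, 116, 66.3 and 46 CPM at 12 h and 37.7, 23.4, 19.3 and 20.1 CPM at 24 h, a log2 fold change of -1.82 ± 0.26 (adjusted p = 1.07e-05). Nfkb2, its partner, had 214, 186, 106 and 60.6 CPM at 12 h and 66.5, 50.9, 36.2 and 30.4 CPM at 24 h (log2 fold change -1.62 ± 0.27, adjusted p = 8.31e-05). Relb was apart between the groups, while for Nfkb2 12 h replicate 4 (60.6 CPM) was below 24 h replicate 1 (66.5 CPM). The classical subunits had smaller log2 fold changes, of -0.96 ± 0.31 for Rel, -0.69 ± 0.15 for Nfkb1 and -0.58 ± 0.16 for Rela. The Nfkb2 gene overlaps Psd on the other strand.

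Among the inhibitors and feedback genes, Nfkbie, which holds NF-kB in the cytoplasm, fell from 123 to 41.1 CPM (log2 fold change -1.58 ± 0.25, adjusted p = 4.14e-05). Birc3, an anti-death target, fell by 1.44 ± 0.29 on the log2 scale. The log2 fold change was -1.41 ± 0.27 for the kinase Ikbke, -1.2 ± 0.26 for the co-regulator Bcl3, -1.17 ± 0.23 for Tnfaip2 and -0.74 ± 0.18 for the adaptor Tnip1. The fast inhibitors were too variable to be called: Nfkbia averaged 1382 and 782 CPM (log2 fold change -0.82 ± 0.82, adjusted p = 0.607) and Tnfaip3 1160 and 662 CPM (-0.81 ± 1.17, adjusted p = 0.744). Leaving out each library in turn left 8 to 12 of the 20 called lower. Within set 1 alone 10 were called and within set 2 alone 5. The mean of Relb at 24 h, 25.1 CPM, lay inside the range of the 4 PBS libraries, 22 to 34 CPM, and its mean at 12 h, 88.8 CPM, lay above it.

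**Figure D4:**
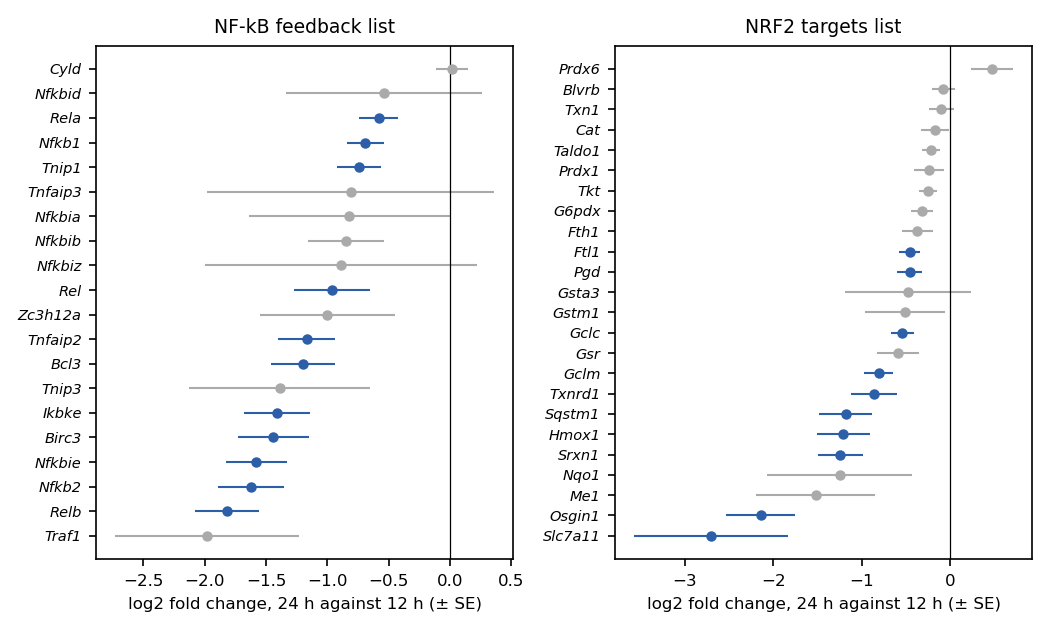
Log2 fold change (24 h against 12 h) with its SE for the 20 tested NF-kB genes (left) and the 24 tested NRF2 targets (right); blue marks called genes and grey those not called. All 11 called NF-kB genes and all 10 called NRF2 targets lie below 0, and the grey NF-kB genes Nfkbia, Nfkbiz and Tnfaip3 have the wide errors given in the text.

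Inflammatory cytokine genes had lower mean levels but were not called. Of 20 tested cytokine and feedback genes none passed at an adjusted p below 0.05 in edgeR's quasi-likelihood test, 5 had an unadjusted p below 0.05, as had 3769 of all 17080 genes, and DESeq2 called 3 lower. Their median log2 fold change was -0.91, and 5 were called lower without 24 h replicate 1 and 3 without 12 h replicate 4. With the set as a covariate 3 were called lower, within set 1 alone none and within set 2 alone 3. Il1b, the pyrogenic interleukin, had 2209, 2667, 814 and 1070 CPM at 12 h and 1649, 463, 365 and 141 CPM at 24 h (log2 fold change -1.37 ± 0.64, adjusted p = 0.198). The groups overlapped through 24 h replicate 1, without which the change of Il1b was -2.39 with an adjusted p of 0.0221. Il6 ranged from 80.9 to 649 CPM at 12 h and from 4.71 to 135 CPM at 24 h (adjusted p = 0.0665), and Tnf averaged 649 and 355 CPM (adjusted p = 0.777).

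Chemokines gave 2 calls. Of 23 tested, Cxcl13 and Cxcl16 (8.7%) were lower and none was higher, beside 3.62% of all genes called lower. The median log2 fold change was -0.83. Cxcl13 (chromosome 5, 95956951 to 95961068, plus strand), which draws B cells, had 952, 926, 1046 and 901 CPM at 12 h and 90.7, 84.5, 164 and 115 CPM at 24 h. The groups were far apart with little spread, and the log2 fold change was -3.07 ± 0.60 (adjusted p = 0.000842). Cxcl16, a scavenger receptor and chemokine, fell by 0.80 ± 0.18. The monocyte attractant Ccl2 averaged 977 and 455 CPM (adjusted p = 0.187) and the neutrophil attractant Cxcl2 2138 and 676 CPM (adjusted p = 0.393).

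Mmp9 had the largest fall among all genes named by size. Mmp9, a matrix-cleaving protease, had 54.7, 53.3, 42.9 and 20.3 CPM at 12 h and 2.24, 1.99, 3.13 and 5.53 CPM at 24 h (log2 fold change -3.73 ± 0.52, adjusted p = 8.71e-06). Mmp9 is also made by neutrophils. The summed level of 10 tested neutrophil markers was 107 to 183 CPM at 12 h and 61 to 72.1 CPM at 24 h. Without Mmp9 it was 86.2 to 128 CPM and 59 to 66.6 CPM, and most of that was Csf3r. Csf3r had 106, 99.5, 68.4 and 68.1 CPM at 12 h and 47, 46.4, 55.5 and 58.9 CPM at 24 h. In the 4 PBS libraries Csf3r lay between 69 and 83.8 CPM. Of the defining markers S100a8 fell from 6.32 to 0.82 CPM (log2 fold change -2.94 ± 0.69, adjusted p = 0.00444), Ltf was at 0 in all 8 libraries and Mmp8 averaged 6.19 and 4.33 CPM. The part of neutrophil RNA in the fall of Mmp9 was not tested.

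Pla2g7, the secreted enzyme that breaks down platelet-activating factor, had 1440, 1250, 1223 and 561 CPM at 12 h and 180, 130, 200 and 256 CPM at 24 h (log2 fold change -2.55 ± 0.32, adjusted p = 2.5e-06). The lowest 12 h library, replicate 4, was still above the highest 24 h library. Gpr84, a receptor for medium-chain fatty acids, fell by 2.41 ± 0.61 on the log2 scale. The log2 fold change was -2.75 ± 0.51 for the mitochondrial arginase Arg2 and -2.07 ± 0.43 for Clec4d, a lectin receptor for microbial glycolipids. Log2 fold changes of -3.4 ± 0.77 for Akap12, a kinase scaffold, -2.22 ± 0.39 for Abtb2, -2.08 ± 0.41 for Jdp2, an AP-1 repressor, and -1.94 ± 0.26 for Ceacam1, an adhesion receptor, were also among the largest. For Gpr84 the log2 fold change was -3.01 without 24 h replicate 1. With only the 8 libraries compared Gpr84 (adjusted p = 0.0648) and Clec4d (adjusted p = 0.0548) were not called.

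A further group of large falls held genes known mainly from other liver cells. Lepr, the leptin receptor, had 31.4, 30.2, 36.7 and 4.73 CPM at 12 h and 4.32, 1.94, 2.16 and 3.24 CPM at 24 h (log2 fold change -3.14 ± 0.65, adjusted p = 0.00136), so that 12 h replicate 4 was close to the 24 h libraries. Hamp, the liver hormone hepcidin, fell by 2.70 ± 0.74 and lost its call without 12 h replicate 3 (log2 fold change -2.05, adjusted p = 0.0923), the library with the highest sum of hepatocyte markers. Cdo1, a cysteine-degrading enzyme, fell by 1.97 ± 0.59 and lost its call in 5 of the 8 leave-outs, with an adjusted p of up to 0.104 (without 12 h replicate 1), within set 1 alone (adjusted p = 0.0957) and with no filter on low counts (adjusted p = 0.0544). The haemoglobin gene Hbb-bs fell by 2.23 ± 0.65 and lost its call without 12 h replicate 4, 24 h replicate 1 or 24 h replicate 4, with an adjusted p of up to 0.0844, and within set 1 alone (adjusted p = 0.224). The sum of 7 tested erythroid markers was 15.6 to 50.4 CPM at 12 h and 4.68 to 9.62 CPM at 24 h. The part of hepatocyte and erythroid RNA in these falls was not tested.

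**Figure D5:**
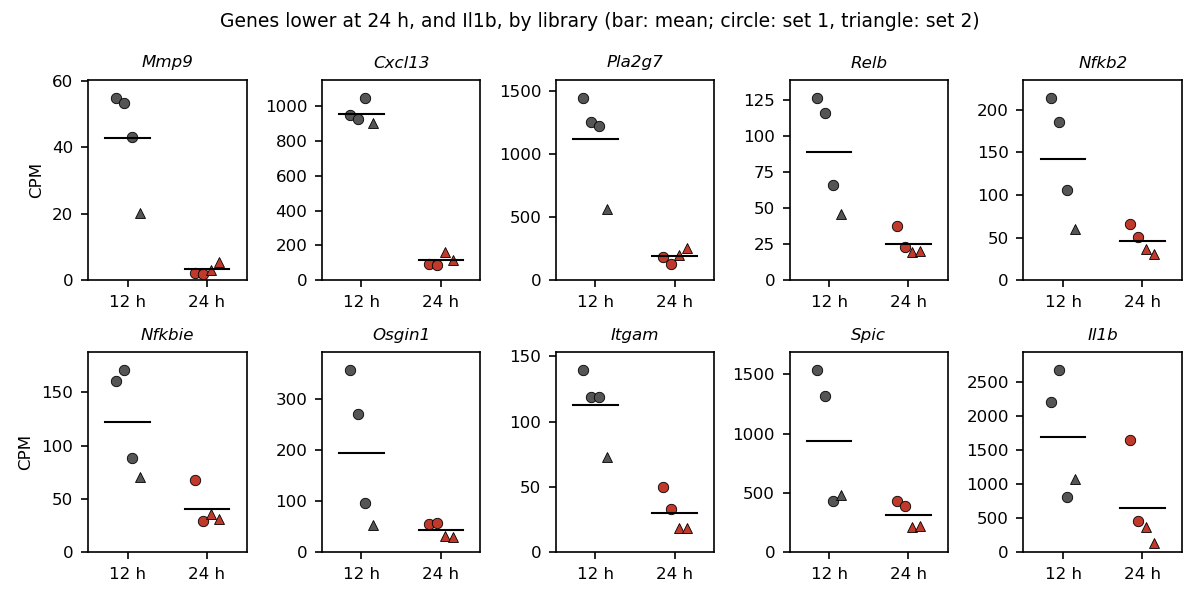
CPM in each of the 4 libraries at 12 h (grey) and at 24 h (red) for 9 genes called lower at 24 h and for Il1b, with the mean as a bar; circles are set 1 and triangles set 2. Mmp9, Cxcl13, Pla2g7, Relb, Nfkbie, Itgam and Spic are apart between the groups, and Il1b overlaps through 24 h replicate 1 at 1649 CPM.

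Targets of NRF2, the factor that raises antioxidant and detoxifying genes under oxidative stress, also fell. Of 24 tested, 10 were lower and none higher, beside 3.62% of all genes called lower, and 23 had a negative log2 fold change, with a median of -0.49. Osgin1 (chromosome 8, 119434124 to 119446256, plus strand), an oxidative stress response gene, had 357, 271, 97.1 and 54.4 CPM at 12 h and 56.6, 57.2, 33 and 29.9 CPM at 24 h (log2 fold change -2.14 ± 0.39, adjusted p = 0.000321). Only 12 h replicate 4 overlapped with the 24 h libraries. Srxn1, which repairs oxidised peroxiredoxins, fell by 1.24 ± 0.25 on the log2 scale, and Gclm and Gclc, the subunits of the enzyme that starts glutathione synthesis, had log2 fold changes of -0.81 ± 0.16 and -0.54 ± 0.13. Hmox1, haem oxygenase, averaged 8096 and 3489 CPM (log2 fold change -1.21 ± 0.30) and lost its call without 12 h replicate 1 (adjusted p = 0.08). Nqo1 was low, at 1.44 and 0.608 CPM (adjusted p = 0.389). Without 12 h replicate 1 the list held 3 calls, without 24 h replicate 4 it held 6, and without 12 h replicate 4 it held 12. The fit on only the 8 libraries compared called 4 lower and 1 higher, and lost Osgin1 (adjusted p = 0.07), Srxn1 (adjusted p = 0.122) and Hmox1 (adjusted p = 0.177). Hmox1 was also not called within set 1 alone (adjusted p = 0.0569).

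Danger receptors and complement genes were lower in part. Of 20 tested Toll-like receptor genes and their adaptors 4 (20%) were lower and none higher, beside 3.62% of all genes called lower. They were led by Tlr2, the receptor for bacterial lipoproteins, which went from 720 to 288 CPM (log2 fold change -1.32 ± 0.20, adjusted p = 2.24e-05). The inhibitory kinase Irak3 came next (-1.18 ± 0.26). Leaving out 12 h replicate 4 gave 9 calls in this list and leaving out 24 h replicate 1 gave 7. Of 21 complement genes 7 were lower and none higher, beside 3.62% of all genes called lower. Itgam, a chain of complement receptor 3, had 139, 119, 119 and 73.3 CPM at 12 h and 50.3, 33, 19 and 18.4 CPM at 24 h (log2 fold change -1.90 ± 0.30, adjusted p = 3.54e-05). C6, of the membrane attack complex, went from 999 to 421 CPM (-1.25 ± 0.28). Within set 1 the change of C6 was -2.14 and within set 2 it was -0.44, while the opsonin C1qa averaged 2940 and 2463 CPM (adjusted p = 0.277). Without 12 h replicate 1, 12 h replicate 2 or 24 h replicate 4 the complement list held 3, 4 and 3 calls, and with only the 8 libraries compared it held 3, with C6 lost (adjusted p = 0.054). The Itgam gene overlaps the predicted gene Gm49368 on the same strand.

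Stress response genes gave calls mainly in the integrated stress response, which slows translation under stress. Of its 20 tested genes 4 (20%) were lower and 1 (5%) was higher, beside 3.62% and 5.42% of all genes. The higher gene was Shmt2, a mitochondrial one-carbon enzyme. The number lower was 2 without 12 h replicate 1 or 2 or 24 h replicate 2, 3 or 4. Shmt2 lost its call without 12 h replicate 1 or 3 or 24 h replicate 2 or 3, with an adjusted p of up to 0.0909, so that no gene of the list was then higher. Cebpb, an inflammatory and stress factor, went from 812 to 334 CPM (log2 fold change -1.28 ± 0.26, adjusted p = 0.000886) and Nupr1, a stress-induced nuclear protein, from 42.3 to 12.5 CPM (-1.76 ± 0.36, adjusted p = 0.00117). Of 27 immediate early genes none was called by edgeR's quasi-likelihood test, 4 had an unadjusted p below 0.05 (of all 17080 genes, 3769 had) and DESeq2 called 1 lower, and their median log2 fold change was -0.78. Without 24 h replicate 1 edgeR called 2 of them lower, with the set as a covariate 2 and within set 1 alone 1. Of 20 heat shock chaperones none was called, with 5 at an unadjusted p below 0.05 and 1 called higher by DESeq2. Without 12 h replicate 2 edgeR called 1 of them higher.

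The genes that mark KC identity gave few calls. Of 25 tested, 3 were lower and 1 was higher, beside 3.62% and 5.42% of all genes, with a median log2 fold change of -0.23. With only the 8 libraries compared none was called, with an adjusted p of 0.0743 for Spic, 0.054 for C6, 0.0727 for Vsig4 and 0.133 for Kcna2. Spic, a factor for macrophages that recycle erythrocyte iron, had 1531, 1312, 432 and 487 CPM at 12 h and 430, 391, 215 and 223 CPM at 24 h (log2 fold change -1.58 ± 0.26, adjusted p = 8.96e-05). Its groups only just did not overlap, and the 4 PBS libraries lay between 146 and 218 CPM. The other calls were C6, Vsig4 and the channel gene Kcna2, higher at 24 h by 0.99 ± 0.28 on the log2 scale. Vsig4, a complement receptor, averaged 2970 and 2134 CPM (log2 fold change -0.48 ± 0.15, adjusted p = 0.0429) and lost its call in 6 of the 8 leave-outs, all but those of 12 h replicate 4 and 24 h replicate 3, with only the KC libraries after APAP (adjusted p = 0.0528) and with no filter on low counts (adjusted p = 0.0544). Kcna2 lost its call within set 1 alone (adjusted p = 0.0923) and without 12 h replicate 1, 12 h replicate 2, 12 h replicate 3 or 24 h replicate 4, with an adjusted p of up to 0.138.

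Clec4f had 9187, 9785, 8685 and 9928 CPM at 12 h and 5424, 4273, 10060 and 8041 CPM at 24 h. The set 1 libraries at 24 h, replicates 1 and 2, were lowest and the set 2 libraries were in or near the 12 h range, so that the log2 fold change was -0.44 ± 0.18 over all (adjusted p = 0.135), -0.93 within set 1 (adjusted p = 0.000235) and -0.13 within set 2. With the set as a covariate Clec4f was called (-0.55, adjusted p = 0.0117). Without 24 h replicate 3 Clec4f was called (-0.67, adjusted p = 0.018). Timd4, a receptor for dying cells on long-lived KCs, showed the same order at 24 h, with 602, 545, 1038 and 870 CPM (log2 fold change -0.23 ± 0.17, adjusted p = 0.475, and -0.52 within set 1, adjusted p = 0.0149). Marco, a scavenger receptor, averaged 4387 and 6080 CPM (adjusted p = 0.408). Within set 1 alone 10 of the 25 identity genes were called lower, beside 951 of 16362 genes tested. With the set as a covariate 8 were, beside 752 of 17080. Within set 2 alone their median log2 fold change was -0.13.

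Genes of lipid-associated macrophages (LAMs), which gather around dead cells and lipid, had medians of opposite sign in the sets. Of 28 tested none was higher and 2 (7.14%) were lower, beside 5.42% and 3.62% of all genes. The 2 were Apoe (log2 fold change -0.71 ± 0.16, adjusted p = 0.00276) and Lpl (-0.81 ± 0.24), which carry and split lipids. The median log2 fold change of the list was -0.01. Within set 1 alone 4 were called higher and 1 lower, beside 1223 and 951 of 16362 genes tested, with a median of 0.41. Within set 2 alone the median was -0.54. The difference between the sets was not tested. Trem2, the lipid receptor that defines LAMs, had 66.7, 70.1, 59.2 and 55.5 CPM at 12 h and 98.9, 106, 33 and 55.2 CPM at 24 h (log2 fold change 0.22 ± 0.32, adjusted p = 0.744). At 24 h both set 1 libraries were above the 12 h range, and replicates 3 and 4 were below it, replicate 4 only just. Gpnmb (adjusted p = 0.778) and Cd9 (adjusted p = 0.184) also split by set. Their log2 fold changes were 1.17 and 1.58 within set 1 and -0.62 and -0.52 within set 2. Cd9 was called within set 1 (adjusted p = 0.00835). Spp1, or osteopontin, reached at most 3.28 CPM in any library (log2 fold change 2.2 ± 1.09, adjusted p = 0.227), and was called with only the 8 libraries compared (adjusted p = 0.041). Lpl lost its call without 12 h replicate 1, 12 h replicate 2, 24 h replicate 3 or 24 h replicate 4, with an adjusted p of up to 0.117, within set 1 alone (adjusted p = 0.0974) and with only the 8 libraries compared (adjusted p = 0.0551).

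Markers of recruited monocytes were low at both times. Ccr2, their chemokine receptor, averaged 2.65 and 1.79 CPM (log2 fold change -0.57, adjusted p = 0.654), and Ly6c2 reached at most 0.485 CPM in any of the 8 libraries (adjusted p = 0.678). The sum of 13 tested monocyte markers was 341 to 522 CPM at 12 h and 309 to 517 CPM at 24 h.

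Genes of the circadian clock also changed. The clock is a loop in which the activators Arntl and Clock raise Per, Cry, Nr1d1 and Nr1d2, whose products repress it, and every peripheral tissue runs it over the day. Of 19 tested, 7 were higher and 1 was lower at 24 h, beside 5.42% and 3.62% of all genes, and the same 8 were apart between the groups, beside 8.08% of all genes with every 24 h library above and 5.98% below. The repressor Nr1d2 had 11.7, 11.5, 19.8 and 19.4 CPM at 12 h and 138, 134, 81.1 and 118 CPM at 24 h (log2 fold change 2.91 ± 0.27, adjusted p = 5.94e-09). Its relative Nr1d1 had 9, 8.92, 3.70 and 3.34 CPM at 12 h and 43.4, 49.4, 14.3 and 27.6 CPM at 24 h (2.43 ± 0.46, adjusted p = 0.000502). Arntl, the activator, moved the other way, from 30.2, 24.5, 33.7 and 29.6 CPM to 5.35, 5.45, 12.3 and 8.01 CPM (-1.92 ± 0.25, adjusted p = 2.95e-06).

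The output factor Tef had 9.89, 4.37, 8.49 and 13.9 CPM at 12 h and 53.6, 47.3, 64.6 and 66.7 CPM at 24 h (2.66 ± 0.29, adjusted p = 1.74e-07). Dbp rose by 2.62 ± 0.44, Per3 by 2.37 ± 0.43, Cry2 by 2.01 ± 0.45 and Per2 by 1.5 ± 0.40 on the log2 scale. Clock itself averaged 46.3 and 42.5 CPM (adjusted p = 0.721) and Per1 24.4 and 9.38 CPM (adjusted p = 0.23). The 12 h replicate 4, which was nearest to the 24 h libraries on the first component, was on the 12 h side of every 24 h library for all 8 called clock genes. Leaving out any single library left 6 or 7 genes higher and 1 lower. The gene Nr1d1 overlaps Thra and Dbp overlaps Sphk2 on the other strand, so their counts are uncertain to that extent.

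The start of Tef is shown as a called clock gene with an E-box, the motif that Arntl and Clock bind. It is the 250 bases before the RefSeq start (GRCm38.p6, chr15:81802423-81802672, plus strand) with the letters CACGTG, a palindrome, in capitals.
Tef: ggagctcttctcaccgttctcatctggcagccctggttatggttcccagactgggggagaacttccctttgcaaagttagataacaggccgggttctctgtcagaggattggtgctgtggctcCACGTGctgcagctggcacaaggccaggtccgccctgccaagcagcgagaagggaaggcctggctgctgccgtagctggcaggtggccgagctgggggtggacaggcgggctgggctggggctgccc
The match in Tef begins 127 bases before the RefSeq start. In the GENCODE M21 annotation Tef begins at 81802421, so its window lies inside that gene. Of 16 clock genes with a window 5 (31.2%) held an E-box, beside 932 (8.17%) of 11402 tested genes. Per2, a called clock gene, had no window, and of the other called ones only Tef held an E-box in these windows.

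The PBS libraries give levels without APAP, but both at 0 h belong to set 2 and both at 24 h to set 1, so that time and set cannot be told apart there, and the difference was not tested. Mean Nr1d1 was 5.03 CPM in the 2 PBS libraries at 0 h and 40.8 CPM in the 2 at 24 h, and mean Arntl was 26.2 and 3.96 CPM. After APAP mean Nr1d1 was 6.68 CPM at 6 h, 6.24 CPM at 12 h, 33.7 CPM at 24 h, 2.52 CPM at 36 h and 31.1 CPM at 48 h. The labels give no clock hour, so for the 12 and 24 h groups the time since APAP and the hour of the day cannot be told apart.

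Nuclear respiratory chain and ribosomal protein genes were called higher with small changes. Their medians were positive within set 1, and 0.03 and -0.08 within set 2. Of 43 tested nuclear genes of the respiratory chain 15 were higher and none lower, beside 5.42% of all genes called higher, all 43 had a positive log2 fold change, and their median was 0.33. The calls lay between 0.28 and 0.63, led by Atp5o, Ndufs1 and Ndufa5, parts of the ATP synthase and of complex I. Of 76 ribosomal protein genes 21 (27.6%) were higher and none lower, beside the same 5.42% of all genes. Their median was 0.39, with calls between 0.34 and 0.59. Counts of ribosomal protein genes can be shared with their many pseudogenes. Both counts rested on single libraries. Without 12 h replicate 1, 12 h replicate 3 and 24 h replicate 2 the ribosomal count was 6, 8 and 7, without 12 h replicate 2 it was 12 and without 12 h replicate 4 it was 53. For the respiratory genes the count was 8, 9 and 10 without 12 h replicates 1 and 3 and 24 h replicate 2, and 25 without 12 h replicate 4. Ribosomal proteins gave 63 higher calls within set 1 alone, beside 1223 of 16362 genes tested, with a median of 0.61. Their median within set 2 alone was -0.08. For the respiratory genes set 1 gave 27 calls and a median of 0.42, and set 2 a median of 0.03. The fit on only the 8 libraries compared called 7 of each list and lost Ndufa5 (adjusted p = 0.0537). Respiratory genes encoded by mitochondrial DNA did not rise with the nuclear ones. Of 11 tested none was called, 10 had a negative log2 fold change, and their median was -0.35.

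Targets of the sterol sensor LXR were lower in part, and interferon genes gave few calls. Of 13 LXR targets 4 (30.8%) were lower and none higher, beside 3.62% of all genes called lower. Among the 4 were Pltp (log2 fold change -0.81 ± 0.17, adjusted p = 0.00112) and Apoe. The median log2 fold change of the LXR targets was -0.45. For 5 of the 13 every 24 h library was below every 12 h library, beside 5.98% of all genes. Of 34 type I interferon genes 4 were higher and none lower, beside 5.42% of all genes called higher, among them Ifit3, Bst2 and Eif2ak2, and their median log2 fold change was 0.23. Bst2, which tethers virus particles, rose by 0.60 ± 0.14 on the log2 scale. Without 24 h replicate 3 a single interferon gene was called higher and 1 lower, and within set 1 alone 2 were higher and 2 lower. Ifit3 lost its call in 4 of the 8 leave-outs, with an adjusted p of up to 0.185, and Eif2ak2 in 1 of them (adjusted p = 0.056). With only the 8 libraries compared 1 interferon gene was called, and Ifit3 (adjusted p = 0.079), Bst2 (adjusted p = 0.0519) and Eif2ak2 (adjusted p = 0.052) were not.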

How the data were processed

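Raw counts of reads per gene were deposited by the authors for each of 48 libraries. The submitters' processing notes list the mm10 genome with featureCounts 2.0.0, SAMtools 1.10, HISAT2 2.2.0 and FastQC 0.11.9, while the strand setting and annotation release are not given in the sources used here. Here, edgeR 4.0.16 kept 17080 genes (filterByExpr), scaled libraries with TMM factors and fitted all 48 libraries with 1 coefficient per group (quasi-likelihood, robust). The contrast of KCs 24 h and 12 h after APAP was tested 2-sided, with Benjamini-Hochberg adjustment over all genes tested, and called at an adjusted p below 0.05. The SE of a log2 fold change is its size divided by the root of the F statistic. CPM use scaled library sizes. Reads are not marked by molecule. SE and p-values rest on variation among the libraries as well as on counting error.

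The groups, gene lists and alternatives were chosen with earlier results of these data known. Named were the 15 largest called rises and falls (at least 10 CPM in the higher group, groups apart, predicted and receptor segment genes passed over), a panel of 12 genes (Il1b, Mki67, Clec4f, Trem2, Ly6c2, Marco, Gpnmb, Ccr2, Spp1, Vsig4, Cd9 and Timd4), and from each list up to 4 called members, others only with their value. Values of some genes named by this rule are not reported here. No libraries were duplicates: counts of each pair differed by at least 17.88 times the sampling variance. Same-numbered libraries had residual correlations of 0.14, 0.09, 0.09 and 0.15, and differently numbered ones of -0.21 to 0.17. The labels do not say that the numbers pair libraries, and they were not taken as pairs. Positions are from GENCODE M21 (mm10), where 207 of 209 genes looked up were found, and start windows from RefSeq (GRCm38.p6). Each window precedes the first listed RefSeq start of a gene, which can differ from its GENCODE start. The procedure was tested on simulated counts. Alternatives were DESeq2 1.42.0, RLE scaling, no filter, fewer libraries, the set as covariate or alone, a replicate block and each library left out. Software was R 4.3.3, Python 3.11.15 and matplotlib 3.10.9.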

Additional observations from a re-analysis of the deposited data

Results flagged for a closer look

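In each group of 4 libraries the highest or lowest value was set apart here when its distance to the nearest other library passed the 95% critical share of the group's range in Dixon's test. Chance alone sets apart about 1 group in 20. Of the 160 groups tested, 13 were set apart, and 11 of these were genes of DNA replication, repair or division at 12 h with replicate 4 as the high library. These 11 values share 1 library and are not independent.

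Among replication genes, 12 h replicate 4 had 72.3 CPM of Mcm5, a helicase subunit, while the other 12 h libraries had 6.96 to 17.2 CPM. Cdc6, which loads the helicase, was at 6.36 CPM against 1.82 to 2.36 CPM. Timeless, of the fork protection complex, was at 9.42 CPM against 0.788 to 1.55 CPM. Dtl was at 9 CPM against 0.364 to 1.61 CPM, and Uhrf1 at 20.8 CPM against 1.88 to 4.24 CPM. All 5 were therefore higher in that library than in any other 12 h library.

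The same library stood apart for the chromatin remodeller Hells (12.4 CPM against 0.663 to 2.12 CPM), the exonuclease Exo1 (3.43 CPM against 0 to 0.221 CPM) and the checkpoint kinase Chek1 (5.8 CPM against 0 to 0.863 CPM). It also did for Rad54l, of recombination repair (5.52 CPM against 0.608 to 1.27 CPM), the condensin subunit Ncaph (9.61 CPM against 2.24 to 3.33 CPM) and the cyclin Ccne2 (5.15 CPM against 0.849 to 1.15 CPM).

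The remaining pair lay in other libraries. Ly6c2, a marker of inflammatory monocytes, was at 0.314 CPM in 24 h replicate 2 and at 0 in the other 24 h libraries. Eif2ak2, the double-stranded RNA sensor PKR, was at 35.6 CPM in 12 h replicate 3, against 27.8 to 29 CPM.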

How the results depend on the processing

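Under the alternatives run for all genes, 1544 calls (925 higher, 619 lower) became 137 (49 and 88) in set 2 alone, where 12 h had 1 library that was assumed to vary like the other groups. Lower calls were 935 with DESeq2, 951 in set 1 alone and 1012 with the replicate block, which called 1953 genes in all, 941 of them higher. The same-number libraries correlated at 0.09 to 0.15 and the others at -0.21 to 0.17. The labels state no pairing, and the block is not read as 1. With it 17 of 27 immediate early genes and 8 of 18 cytokine genes tested were called lower, against none without it, and the cause of the added calls was not tested. Leaving out 1 library gave 772 to 2133 calls, 494 to 1309 higher and 278 to 824 lower. The share of higher among the calls was 59.9%, 48.2% with the block and 35.8% in set 2. RLE scaling gave 854 higher and 685 lower calls. Of called genes, Trf (-0.75) and Eci1 (0.41) turned sign in set 2 alone, to 0.03 and -0.01. Among values that were not called, set 2 alone gave -0.33 for Trem2, -0.62 for Gpnmb, -0.52 for Cd9 and -0.20 for Marco, and set 1 alone -0.62 for Mki67. Leaving out 1 library gave -0.01 (24 h replicate 2) to 0.46 for Trem2 and -0.05 (24 h replicate 4) to 0.57 for Mki67. Genes near 0 CPM at 12 h, such as Pole, have folds limited by depth.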

Other observations

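Further genes of the S phase were followed in lists that were chosen after values had been seen, so their counts are descriptions only. Of 35 genes of DNA repair and the replication checkpoint 27 (77.1%) were higher at 24 h and none lower, beside 5.42% of all genes called higher. Their median log2 fold change was 1.73. The mismatch repair gene Msh6 rose by 1.51 ± 0.23 and the checkpoint scaffold Topbp1 by 1.49 ± 0.21 on the log2 scale. Atr, the kinase that senses stalled forks, averaged 18.6 and 23.9 CPM (adjusted p = 0.529 in edgeR's quasi-likelihood test). Of 13 tested core and linker histone genes 1 was higher and 3 were lower, beside 5.42% and 3.62% of all genes. Histone genes are counted only as far as their transcripts were captured.

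Of 25 genes of nucleotide synthesis 15 (60%) were higher and 1 (4%) was lower, beside 5.42% and 3.62% of all genes. Their median log2 fold change was 0.78. The purine synthesis enzyme Paics had 89.5, 108, 101 and 131 CPM at 12 h and 175, 200, 241 and 228 CPM at 24 h (log2 fold change 0.97 ± 0.12, adjusted p = 2.5e-06). Its groups were apart, and 12 h replicate 4 was again the highest library at 12 h. Prps2, which makes the sugar precursor, rose by 1.34 ± 0.19, the salvage kinase Dck by 0.86 ± 0.13 and Dut, which removes dUTP, by 2.12 ± 0.37, with Dut not called when only the 8 libraries compared were fitted (adjusted p = 0.0554), while the CTP synthase Ctps2 fell by 0.71 ± 0.14. Of 17 genes of the tricarboxylic acid cycle and pyruvate dehydrogenase 5 (29.4%) were higher and none lower, beside 5.42% of all genes called higher. All 17 had a positive log2 fold change.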
